A study of Mus musculus with 8 samples.

Results

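Gene expression in Ba/F3 cells carrying the FLT3/ITD form named N51 was compared with that in Ba/F3 cells carrying wild type FLT3, on the first of 2 array slides. The members were chosen by label and slide alone. They were wild type FLT3, FLT3/ITD N51, wild type FLT3+Cxcl12 and FLT3/ITD N51+Cxcl12, 1 array each, which makes 4 of the 8 arrays of the study and 2 pairs that share their Cxcl12 state. Ba/F3 is a mouse pro-B cell line that needs IL3 to grow, and all 4 cultures had been kept in medium with serum and IL3. The cells were washed and then held for 4 h in medium with albumin, for which the labels list no IL3, either alone or with 100 ng/ml of recombinant mouse Cxcl12. The other 4 arrays, on the second slide, hold wild type FLT3 again and a different FLT3/ITD form, N78, and are used to show where N51 differed from it and to estimate a spread shared by all 8 arrays. The labels do not say whether the N51 cells are a clone or a pool, what drives the introduced receptor, or whether the arrays came from separate cultures, so every p-value below measures only the spread between these arrays.

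FLT3 is a receptor tyrosine kinase of early blood progenitors. An internal tandem duplication (ITD) in its juxtamembrane region lets the kinase signal without its ligand, and such duplications are frequent in acute myeloid leukaemia. The active receptor is known for switching on STAT5, the RAS and MAP kinase route and the PI3 kinase and AKT route, which also restrains FOXO transcription factors, and it can replace IL3 in Ba/F3 cells. Cxcl12 is the chemokine that Cxcr4 binds on the cell surface.

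Each array was read in 1 colour on an Agilent 4x44K mouse design. A level is the log2 processed intensity minus the 75th percentile of that array, so a level of 0 is the brightness of that percentile, and levels are compared only for the same probe. Differences are N51 minus wild type in log2 units, where 1 is 2-fold. Wherever a gene has a pair of values, the array without Cxcl12 comes first and the array with Cxcl12 second. The scanner software's flag put 49.0% to 53.3% of probes well above background on these arrays. The levels of any array pair correlated at 0.963 to 0.991 across the genes tested, with 1 probe per gene. Each group stands at a single position of the slide, so position and group cannot be told apart.

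The pro-B label was set against 20 marker genes on the array. For 9 of them, among them Cd79a, Cd79b, Vpreb1 and Dntt, the probe was well above background on all 4 arrays, but the probes of 10, including Pax5, Ebf1, Rag1, Rag2, Igll1 and Il7r, were not on any. None of the 9 measured markers passed the N51 test in limma, and 2 had an unadjusted p under 0.05. No array of the first slide had the Flt3 probe well above background, with levels of -5.99 and -5.86 in wild type and -6.02 and -6.13 in N51 cells, while it was on all 4 arrays of the second slide. It checks nothing about the introduced receptor, whose species and construct the labels do not give.

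The N51 cells differed from wild type at 938 of 11672 genes tested (8.04%) at an adjusted p under 0.05, of which 568 (4.87%) rose and 370 (3.17%) fell. The test was limma with Cxcl12 as a term and Benjamini-Hochberg adjustment over all genes, and every adjusted p below comes from it unless another fit is named. Of the 938 genes, 931 had the same direction in both pairs and 7 did not. A second rule with no test, at least 2-fold in both pairs with the brighter arrays well above background, gave 231 higher (1.98%) and 138 lower genes (1.18%), and 366 of these 369 were among the 938. The differences of the pairs correlated at 0.649 across genes, which share arrays and are not independent replicates. Scaling each array to its median gave 384 higher and 153 lower genes, so that the share of higher calls went from 60.6% to 71.5% while the median of all genes moved from -0.02 to 0.06.

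**Figure D1:**
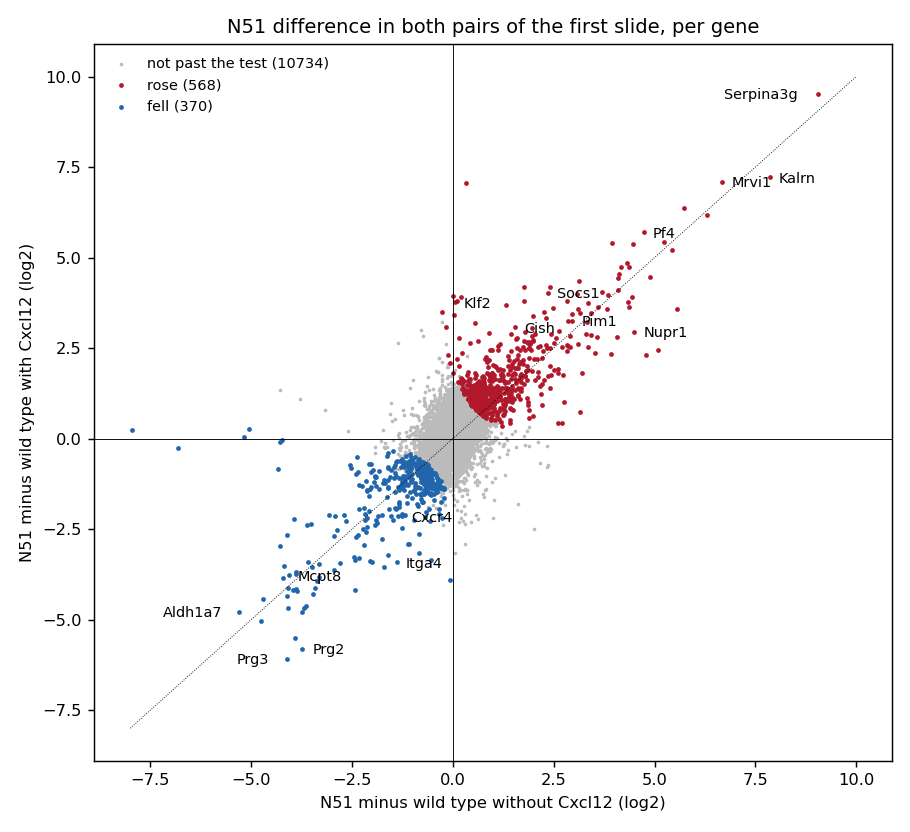
Each point is 1 of 11672 genes, with the N51 minus wild type difference in log2 units without Cxcl12 on the horizontal axis and with Cxcl12 on the vertical axis, and the dotted line marks equal differences. Red points are the 568 genes that rose and blue points the 370 that fell. Most lie near the line, while a few such as Klf2 moved in 1 pair only.

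The test rests on 1 residual degree of freedom per gene, which is how far the N51 difference varied between the pairs. An N51 difference that depends on Cxcl12 thus counts as spread. The spread was moderated by 23.1 prior degrees of freedom taken from the trend of spread with intensity. A gene whose pairs disagreed can therefore pass, and for 37 of the 938 the pairs differed by more than 2 log2 units. When the spread was instead estimated over all 8 arrays, with slide, Cxcl12, N51 and N78 as terms, 498 of 11649 genes (4.28%) passed, and 307 of the genes that rose and 190 of those that fell were among them. In that fit, which then lets the remaining array of a group stand for it with the spread of the others, the count was 136 without the wild type array, 128 without the wild type array with Cxcl12, 1824 without the N51 array and 319 without the N51 array with Cxcl12.

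STAT5 targets, which the active receptor is known to switch on, rose in number. Of 17 genes listed, 13 were measured, of which 7 rose and none fell. Over all genes tested 4.87% rose and 3.17% fell, and each list count below is to be read beside these shares. The median difference was 0.80 against -0.02 over all genes tested. The arrays of N51 and wild type cells did not overlap for 11 of the 13, against 41.2% of all genes. Those that rose are the kinase gene Pim1, the receptor inhibitors Socs1, Cish and Socs3, the helix-loop-helix inhibitor Id1, the survival gene Bcl2l1 and the cytokine Osm.

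Pim1, a serine/threonine kinase that favours survival, had levels of -3.29 and -3.56 in wild type and -0.32 and -0.31 in N51 cells. The N51 arrays were high in both pairs, and the mean difference was 3.11 (SE 0.24, adjusted p = 1.05e-09). Socs1, which binds JAK kinases and damps cytokine signalling, had levels of -2.13 and -2.32 in wild type and 0.23 and 1.70 in N51 cells, a difference of 3.19 (SE 0.28, adjusted p = 6.67e-09). The wild type arrays of Socs1 lay close together, and of the N51 arrays the one with Cxcl12 was the higher. Cish, a classical STAT5 target, had levels of 1.93 and 0.96 in wild type and 3.46 and 4.03 in N51 cells and rose by 2.31 (SE 0.27, adjusted p = 1.01e-06).

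For Id1, which blocks differentiation factors of the helix-loop-helix class, the levels were 1.57 and 0.56 in wild type and 3.33 and 4.37 in N51 cells. N51 and wild type arrays did not overlap, and the difference of 2.79 (SE 0.30, adjusted p = 2.79e-07) was 1.76 without and 3.81 with Cxcl12. Bcl2l1 encodes the survival protein BCL-XL, and the probe used had levels of -1.19 and -0.83 in wild type and 0.60 and 1.63 in N51 cells, a rise of 2.12 (SE 0.22, adjusted p = 1.83e-07). It was the member of the 11 measured BCL2 family genes that passed, but 1 of its 3 probes had the opposite sign, at -0.47. Osm rose by 1.02 (SE 0.25, adjusted p = 0.00991) and Socs3 by 0.80 (SE 0.22, adjusted p = 0.0218).

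The members that did not pass were Pim2 at 0.69 (SE 0.23, adjusted p = 0.0745), Ccnd2 at 0.57 (SE 0.23, adjusted p = 0.148), Mcl1 at -0.15 (SE 0.25, adjusted p = 0.809), and Socs2, Ccnd3 and Cdk4 between 0.12 and 0.39. Pim1, Socs1 and Bcl2l1 kept their call under each alternative that left out 1 array, while Cish and Id1 lost it without either wild type array or without the N51 array with Cxcl12. Socs3 lost it in the fit that shares the spread of 8 arrays, and Osm and Socs3 with normexp background correction and with quantile normalization.

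The promoter windows of the STAT5 targets that rose are shown to see whether the canonical STAT5 letters stand near their starts. Windows are the 300 bases around the RefSeq start, most of them before it, on build GRCm38.p6, and 9 of the 13 measured members had one. The letters TTCNNNGAA, which read the same on either strand, occurred in the windows of Cish and Socs3 and in 8.3% of all 32851 windows. The windows of Pim1, Socs1 and Bcl2l1 do not hold them, which says only that these letters are not in those windows. Each sequence below runs 5′ to 3′ on the strand of the gene, with the match in capitals. The Cish window is chr9:107296409-107296708 on the plus strand and holds 2 matches, which begin at bases 1 and 12 from the start. The Socs3 window is chr11:117969317-117969616 on the minus strand, and its match begins at base -154.
Cish: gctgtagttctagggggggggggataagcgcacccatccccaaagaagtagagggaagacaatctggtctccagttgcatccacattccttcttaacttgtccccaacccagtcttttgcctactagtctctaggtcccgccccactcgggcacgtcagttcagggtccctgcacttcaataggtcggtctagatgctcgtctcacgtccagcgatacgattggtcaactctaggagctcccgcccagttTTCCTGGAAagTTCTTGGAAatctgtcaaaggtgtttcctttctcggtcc
Socs3: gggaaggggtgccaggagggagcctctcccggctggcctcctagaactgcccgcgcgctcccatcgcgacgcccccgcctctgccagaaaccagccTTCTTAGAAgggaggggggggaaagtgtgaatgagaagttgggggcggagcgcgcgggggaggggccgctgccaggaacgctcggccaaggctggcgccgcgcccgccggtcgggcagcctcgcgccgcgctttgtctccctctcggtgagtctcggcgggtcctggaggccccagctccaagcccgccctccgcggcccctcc

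Genes of the megakaryocyte and platelet programme rose as well. Of 15 erythroid and megakaryocyte markers 11 were measured, and 7 rose and none fell, with a median difference of 1.30. Pf4, platelet factor 4, had levels of -3.11 and -2.90 in wild type and 1.63 and 2.80 in N51 cells. The N51 arrays were far above the wild type arrays, at a difference of 5.22 (SE 0.24, adjusted p = 4.63e-14).

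Itga2b, the platelet integrin chain CD41, had levels of 0.36 and 0.34 in wild type and 1.94 and 2.84 in N51 cells and rose by 2.04 (SE 0.23, adjusted p = 6.23e-07). The wild type arrays were nearly equal and both N51 arrays were higher. The platelet receptor subunits Gp9 and Gp1ba rose by 1.78 (SE 0.23, adjusted p = 4.27e-06) and 1.04 (SE 0.22, adjusted p = 0.00221), although the Gp1ba level of wild type cells with Cxcl12, -0.48, lay close to that of N51 cells without it, -0.31. The haemoglobin gene Hba-a1 rose by 1.73 (SE 0.21, adjusted p = 2.25e-06), and Ppbp, another platelet chemokine, was at least 2.19-fold higher, since its probe was not well above background in wild type cells. A bound of this kind sets the mean of the brighter group against the dimmest signal that was well above background on the arrays of the dimmer group, or the probe's own signal there where that was higher.

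Hba-a1 apart, the erythroid members did not pass. Klf1, a master regulator of red cell genes, was at -0.60 (SE 0.23, adjusted p = 0.12), Gata1 at 0.10 (SE 0.21, adjusted p = 0.86), the erythropoietin receptor Epor at -0.22 (SE 0.22, adjusted p = 0.662) and the transferrin receptor Tfrc at 0.71 (SE 0.24, adjusted p = 0.0685). The summed linear signal of the 14 erythroid and megakaryocyte markers on the array, in units of the 75th percentile, was 42.7 and 34.1 in wild type and 46.2 and 56.6 in N51 cells, and no array had the probe of the erythroid membrane gene Slc4a1 well above background. Ppbp lost its call with normexp, quantile and median scaling, and without any 1 array. Gp1ba lost it with quantile normalization and without all but the N51 array, Hba-a1 without either wild type array and Gp9 without the wild type array with Cxcl12, while Pf4 and Itga2b kept theirs without each array in turn.

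The Pf4 window is printed because Pf4 also passed the test of the N51 effect against the N78 effect (below). It is chr5:90772185-90772484 on the plus strand of GRCm38.p6, with a match to the GATA factor letters AGATAA, searched on both strands, in capitals at base 37 after the start. The same letters occur in 11.2% of all windows and in those of 2 of the 10 measured erythroid and megakaryocyte markers that had a window, Pf4 and Epor. They also occur in those of 5 of 13 measured mast cell and basophil markers with a window, and of 0 of 7 eosinophil markers. No marker of these 2 lists rose (below), so the letters do not set apart the list that rose.
Pf4: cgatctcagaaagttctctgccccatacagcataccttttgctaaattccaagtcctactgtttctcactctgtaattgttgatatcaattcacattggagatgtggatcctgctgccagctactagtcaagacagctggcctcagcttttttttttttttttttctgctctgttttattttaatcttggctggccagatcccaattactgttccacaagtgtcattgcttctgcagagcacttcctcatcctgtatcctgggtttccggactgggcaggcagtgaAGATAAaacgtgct

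**Figure D2:**
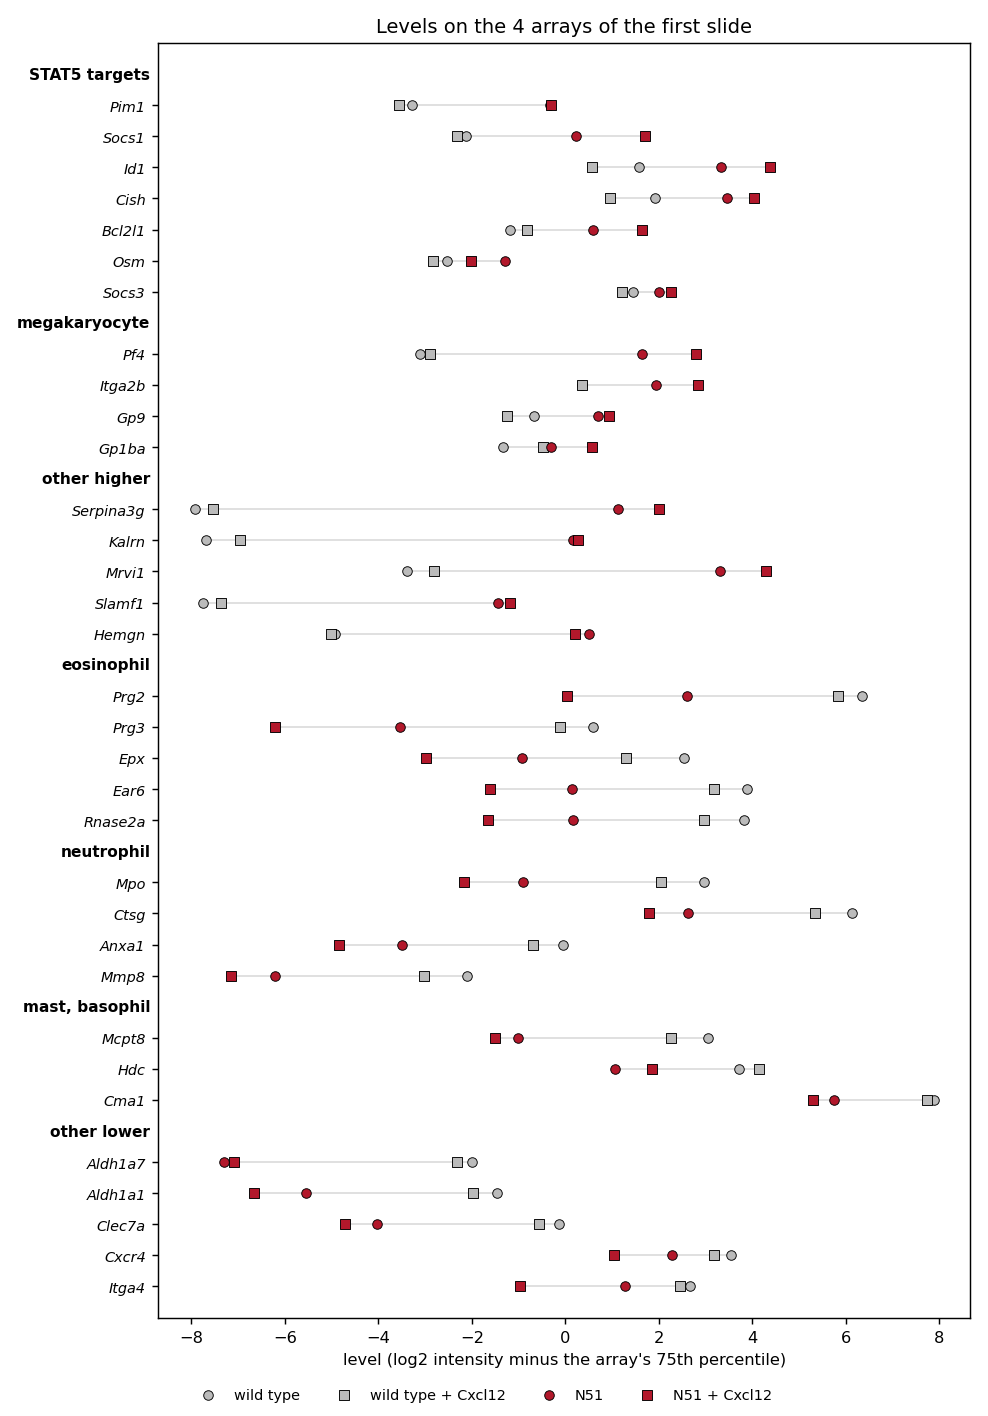
Levels of named genes on the 4 arrays of the first slide, in log2 units relative to the 75th percentile of each array. Grey symbols are wild type and red symbols N51 arrays, circles without and squares with Cxcl12. For each gene shown both red symbols lie on the same side of both grey ones, and for Gp1ba by a small margin.

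Several of the largest rises were of genes whose probes were at background in wild type cells. Serpina3g, a serine protease inhibitor of blood cells, had levels of -7.92 and -7.54 in wild type and 1.13 and 2.0 in N51 cells. Its probe, at chr12:105480045-105480104 on mm9, was not well above background on either wild type array, and Serpina3g was at least 132-fold higher in N51 cells. The probe passed the filter through the N51 arrays alone, so no p-value is given for this bound. It differed from the probe of its neighbour in the family, Serpina3f, with at most 21 of 60 bases matching in any ungapped alignment.

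Kalrn, an exchange factor for small GTPases, was at least 51.8-fold higher, with levels of 0.17 and 0.26 in N51 cells. Slamf1, the stem cell surface receptor CD150, was at least 17.9-fold higher and Cped1 at least 10.1-fold. Ankrd36, Smad9, which transmits BMP signals, the zinc transporter Slc30a2 and Mfap3l were at least 8.2-fold, 7.43-fold, 6.36-fold and 5.18-fold higher. In each of these the wild type probes were not well above background on either array and the N51 probes were on both.

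Other large rises were measured on both sides. Mrvi1, a partner of inositol trisphosphate receptors, had levels of -3.39 and -2.80 in wild type and 3.30 and 4.29 in N51 cells and rose by 6.89 (SE 0.22, adjusted p = 1.85e-17). Trgv2, a T cell receptor gamma segment, rose by 6.05 (SE 0.22, adjusted p = 5.48e-16). Hemgn, a nuclear protein of blood progenitors, had levels of -4.94 and -5.02 in wild type and 0.50 and 0.19 in N51 cells, although its probe was well above background on only 1 wild type array, and rose by 5.33 (SE 0.25, adjusted p = 1.12e-13). Mylk, the myosin light chain kinase, whose probe was also well above background on 1 wild type array, and Rgl1, an effector of Ras, rose by 4.93 (SE 0.31) and 4.46 (SE 0.25).

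Receptors for cytokines changed in both directions. Of 28 genes listed 18 were measured, and 5 rose and 1 fell, where 4.87% of all genes tested rose and 3.17% fell. The interleukin-10 receptor chain Il10ra rose by 2.86 (SE 0.31, adjusted p = 2.79e-07), with levels of -4.93 and -5.62 in wild type and -2.02 and -2.80 in N51 cells, 1 of the wild type arrays being well above background. The interleukin-4 receptor Il4ra had levels of -0.21 and -0.82 in wild type and 0.76 and 1.62 in N51 cells and rose by 1.70 (SE 0.26, adjusted p = 5.07e-05), the smaller part of it in the pair without Cxcl12. Il2rb and Flt3l, the ligand of FLT3 itself, rose by 1.33 (SE 0.25) and 1.12 (SE 0.23).

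Ifngr1, a chain of the interferon gamma receptor, fell by 1.21 (SE 0.24, adjusted p = 0.00131). The chains through which IL3 acts did not pass, with Il3ra at 0.16 (SE 0.21, adjusted p = 0.757) and Csf2rb, the shared beta chain, at -0.28 (SE 0.29, adjusted p = 0.665). The 3 Csf2rb probes did not all have the same sign, and their mean was 0.18. Without the wild type array that had no Cxcl12, 1 of the 6 calls was kept, and the calls of Il10ra, Il4ra, Il2rb, Flt3l and Ifngr1 were lost.

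Adhesion genes also went both ways. Of 27 listed 22 were measured, and 6 rose and 3 fell. The integrin beta 5 chain Itgb5, well above background on 1 wild type array, rose by 2.71 (SE 0.32, adjusted p = 1.17e-06), and the chains of LFA-1, Itgal and Itgb2, by 0.91 (SE 0.21) and 0.76 (SE 0.21). Itga4, a chain of VLA-4 that holds progenitors in the marrow, had levels of 2.67 and 2.45 in wild type and 1.27 and -0.97 in N51 cells and fell by 2.41 (SE 0.30, adjusted p = 2.11e-06).

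All 5 Itga4 probes kept were lower in N51 cells, and the N51 array with Cxcl12 was the lowest. Selplg, a surface glycoprotein of leukocytes, was at -0.91 (SE 0.24, adjusted p = 0.0182) and Itga5 at -0.76 (SE 0.24, adjusted p = 0.0488). Calls of Cd9, Itga5, Itgb2 and Selplg were lost with the shared spread of 8 arrays, and those of Itga4, Itgb5 and Itgal without either wild type array, while Itga2b kept its call without each array in turn.

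Among genes of the NF-kB group, 8 of 18 measured (23 listed) rose and none fell. Relb, a subunit of the noncanonical arm, had levels of -2.09 and -1.39 in wild type and -0.56 and 0.76 in N51 cells and rose by 1.84 (SE 0.23, adjusted p = 3.02e-06). Nfkb2 and Nfkb1, which encode precursor subunits, rose by 0.92 (SE 0.21) and 0.89 (SE 0.23), and the adaptor Traf1 by 0.92 (SE 0.23). The chemokine Cxcl10 was at least 3.62-fold and lymphotoxin Lta at least 2.12-fold higher, both from wild type levels not well above background. Ccl5 and Tnf rose by 1.38 (SE 0.33) and 1.1 (SE 0.29). With the shared spread 5 of the 8 passed, not Ccl5, Cxcl10 or Tnf, and without either wild type array Relb alone did.

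In the ATF4 and amino acid response list 10 of 25 measured genes (27 listed) rose and none fell, at a median of 0.69. Nupr1, a stress-induced chromatin protein, had levels of -4.18 and -5.37 in wild type and 0.32 and -2.43 in N51 cells, with 1 wild type array well above background, and rose by 3.72 (SE 0.32, adjusted p = 4.21e-09). Trib3, a pseudokinase induced by ATF4, rose by 1.72 (SE 0.22, adjusted p = 4.48e-06), while Atf4 itself rose by 1.23 (SE 0.26, adjusted p = 0.00261), at 1.89 without and 0.56 with Cxcl12. Phgdh, the entry enzyme of serine synthesis, and Asns, which makes asparagine, rose by 1.19 (SE 0.27) and 1.11 (SE 0.25).

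Of the 10 ATF4 list genes, 7 passed with the shared spread, 4 with quantile normalization, 1 (Nupr1) without the wild type array and 3 without the wild type array with Cxcl12. Of 17 measured amino acid transporter genes 3 rose, 1 fell and 13 did not pass. Slc1a4 rose by 1.31 (SE 0.23, adjusted p = 0.000276). Slc7a8 went the other way, at least 3.61-fold lower in N51 cells, with levels of -3.02 and -3.67 in wild type and -6.91 and -7.40 in N51 cells. Its probe was not well above background on either N51 array. The Slc7a8 call was lost with the shared spread and without any 1 of the 4 arrays.

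Ribosome biogenesis genes leaned the same way, with 9 of 28 measured genes risen and none fallen, 27 of 28 differences above 0 and a median of 0.56, where 47.7% of all 11672 genes tested were above 0. The processing factor Rrp12 had levels of -4.23 and -3.30 in wild type and -2.44 and -0.35 in N51 cells and rose by 2.37 (SE 0.29, adjusted p = 1.73e-06). Mybbp1a and Nolc1, both of the nucleolus, rose by 1.25 (SE 0.23) and 1.13 (SE 0.22). In the MYC network Mycn rose by 1.11 (SE 0.23, adjusted p = 0.00188) and the spermidine synthase gene Srm by 1.81 (SE 0.24, adjusted p = 5.8e-06), whereas Mxd4, which antagonises MYC, fell by 0.99 (SE 0.22, adjusted p = 0.00324).

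Myc itself had levels of 3.17 and 4.00 in wild type and 3.64 and 4.68 in N51 cells, and its difference of 0.57 (SE 0.23, adjusted p = 0.147) did not pass. With the shared spread 3 of the 9 ribosome biogenesis genes passed, Rrp12, Mybbp1a and Nolc1, and none did without either wild type array. In the cholesterol list 8 of 24 measured genes rose and none fell, at a median of 0.37, led by Lss, which closes the sterol ring, at 1.16 (SE 0.21), Msmo1 at 1.16 (SE 0.26) and Mvd at 1.09 (SE 0.22). The 8 calls became 7 with the shared spread and 3 with normexp background correction, and none was left without either wild type array.

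**Figure D3:**
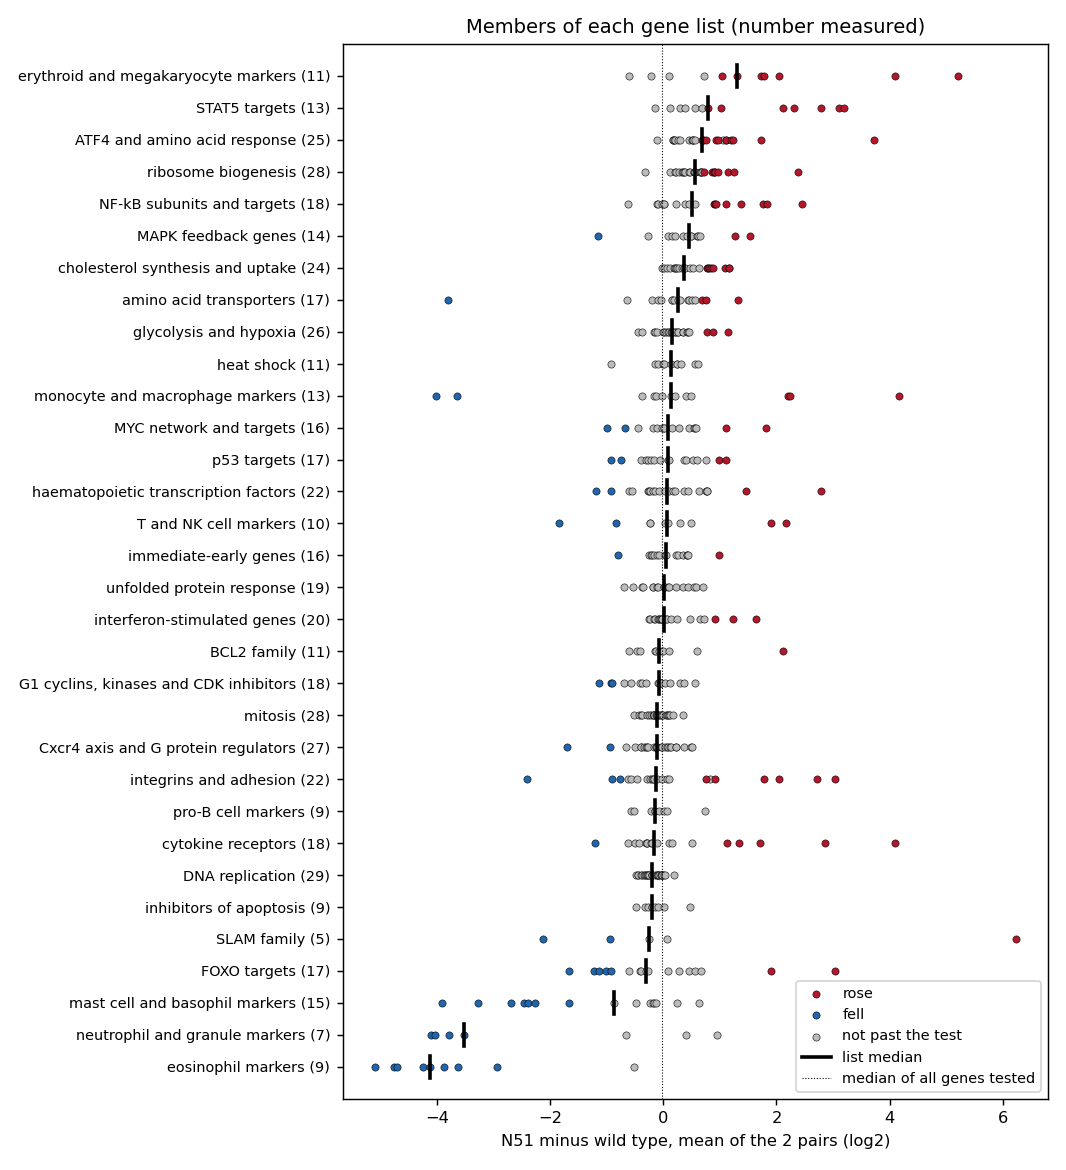
Each row is a gene list with the number of members measured, and each point a member at its mean N51 minus wild type difference in log2 units. Red points rose, blue points fell and grey points did not pass. Black bars are list medians, from -4.14 for eosinophil markers to 1.30 for erythroid and megakaryocyte markers, and the dotted line is the median of all genes tested, -0.02.

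Granule genes of eosinophils fell, and theirs was the lowest median of the lists. Of 13 eosinophil markers listed 9 were measured, 8 fell and none rose, and the median difference was -4.14. Prg2, the major basic protein, had levels of 6.35 and 5.83 in wild type and 2.60 and 0.03 in N51 cells. The N51 arrays lay below the wild type arrays in both pairs, and the one with Cxcl12 was the lower, for a difference of -4.77 (SE 0.31, adjusted p = 3.13e-11). Its homologue Prg3 had levels of 0.59 and -0.12 in wild type and -3.53 and -6.21 in N51 cells, 1 N51 array being well above background, and fell by 5.10 (SE 0.32, adjusted p = 1.97e-11).

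Epx, the eosinophil peroxidase, had levels of 2.54 and 1.30 in wild type and -0.93 and -2.99 in N51 cells, a difference of -3.88 (SE 0.23, adjusted p = 4.97e-12). The eosinophil ribonuclease genes Ear1, Ear6 and Rnase2a were at -4.71, -4.26 and -4.14 (SE 0.33, 0.24 and 0.23), Ear1 with 1 N51 array well above background, and Ear7, which is not in the list, at -4.18 (SE 0.23). Ear10 and Ear3 were at least 3.04-fold and 1.97-fold lower, since neither probe was well above background in N51 cells, and both were measured only because the wild type arrays passed the filter. The Ear genes are near copies, and the Ear3 and Ear7 probes share 49 of 60 bases, so their signals are not fully separate. The Ear6 and Ear7 probes lie close together, at chr14:52473908-52473967 and chr14:52473799-52473858 on mm9. Their first-slide levels ran nearly alike, with 3.89 and 3.76 in wild type cells without Cxcl12. Whether these probes read the same transcript was not tested, so their values may not stand for separate falls.

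The sialic acid receptor Siglecf, another eosinophil marker, did not pass at -0.52 (SE 0.22, adjusted p = 0.169), and the interleukin-5 receptor Il5ra and Ccr3 had no array well above background. The summed signal of the 12 markers on the array was 124 and 85.2 in wild type and 12.5 and 7.63 in N51 cells, and Prg2 made up most of the wild type sums. In RNA from many cells, fewer cells that carry an mRNA and less of it in each cell cannot be told apart. Ear3 lost its call without 3 of the arrays in turn, all but the N51 array, Ear1 without either wild type array and Ear10 without the wild type array, while the other 5 genes kept theirs.

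These granule genes also differed with Cxcl12 on the second slide. There Prg2 had levels of 3.35 and 0.06 in wild type and 2.83 and -0.77 in N78 cells, and Epx of 2.85 and -1.06 in wild type and 3.28 and -0.50 in N78 cells. Thus for Prg2 and Epx the arrays of that slide with Cxcl12 were low in both kinds of cell, and N78 and wild type cells lay close. This did not hold for every eosinophil gene. Rnase2a had second-slide levels of 1.63 and -1.40 in wild type and -0.44 and -3.25 in N78 cells, lower in N78 in both pairs. The median N78 difference of the 9 measured eosinophil markers was -0.68. On the first slide wild type Prg2 was 6.35 without and 5.83 with Cxcl12. Whether the spread of these genes between wild type arrays bears on the N51 difference was not tested.

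Granule genes of neutrophils fell at 4 of the 7 measured (18 listed), and none rose. Mpo, the myeloperoxidase, had levels of 2.96 and 2.03 in wild type and -0.91 and -2.18 in N51 cells and fell by 4.04 (SE 0.21, adjusted p = 7.89e-13). Ctsg, cathepsin G, had levels of 6.13 and 5.33 in wild type and 2.63 and 1.78 in N51 cells, and a difference of -3.53 (SE 0.23, adjusted p = 3.88e-11) that was nearly the same in each pair. Anxa1, an annexin of granulocytes, was at -3.79 (SE 0.26, adjusted p = 9.64e-11).

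The collagenase Mmp8 was at least 6.19-fold lower, and its call was lost without the wild type array. Prtn3, a protease that stands beside these in granules, went the other way and did not pass, at 0.41 (SE 0.27, adjusted p = 0.443). The summed signal of the 16 markers on the array was 81.9 and 47.5 in wild type and 8.83 and 5.39 in N51 cells. Ctsg made up most of each sum, so the sums say little about the other markers. The probes of 8, among them Elane, Ltf, Camp and S100a8, had no array well above background.

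Mast cell and basophil genes fell at 7 of 15 measured (21 listed), and none rose. Mcpt8, a basophil protease, had levels of 3.05 and 2.26 in wild type and -1.02 and -1.52 in N51 cells and a difference of -3.92 (SE 0.21, adjusted p = 1.04e-12). Hdc, which makes histamine, had levels of 3.71 and 4.13 in wild type and 1.05 and 1.84 in N51 cells and fell by 2.47 (SE 0.22, adjusted p = 1.25e-08). The mast cell chymases Cma1 and Mcpt4 were at -2.28 (SE 0.28) and -2.70 (SE 0.27), Cma2 at -2.40 (SE 0.32), and Mcpt2 was at least 2.41-fold lower.

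The surface receptor Cd200r3 was at -1.68 (SE 0.22). Other defining members did not pass, with Cpa3, carboxypeptidase A3, at 0.23 (SE 0.26, adjusted p = 0.689), its pairs of opposite sign, Gata2 at -0.23 (SE 0.28, adjusted p = 0.721) and Mitf at 0.63 (SE 0.30, adjusted p = 0.229). The probes of Kit, Tpsab1, Tpsb2, Il1rl1 and Hpgds had no array well above background, and the summed signal of the 21 markers was 475 and 419 in wild type and 219 and 229 in N51 cells. Mcpt2, Hdc, Cma2 and Cd200r3 lost their calls without the wild type array with Cxcl12, and Hdc also without the wild type array.

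Monocyte and macrophage markers split, with 3 risen and 2 fallen of 13 measured (17 listed). The lysozyme gene Lyz2 had levels of -3.15 and -3.45 in wild type and -1.32 and -0.79 in N51 cells and rose by 2.25 (SE 0.26, adjusted p = 1.11e-06), while Lyz1 was at least 3.47-fold and the Fc receptor Fcgr1 at least 4.66-fold higher. Clec7a, the fungal receptor dectin-1, had levels of -0.14 and -0.56 in wild type and -4.03 and -4.71 in N51 cells, a difference of -4.03 (SE 0.26, adjusted p = 2.01e-11). Mpeg1, a pore-forming protein of macrophages, was at least 7.68-fold lower. Lyz1 and Fcgr1 were measured only because the N51 arrays passed the filter, and Mpeg1 only because the wild type arrays did. When a probe had to be well above background on all 4 arrays, 2 of the 5 calls were left, Lyz2 and Clec7a. Csf1r, Cx3cr1, Itgam and Msr1 had no array well above background. The summed signal of the 17 markers was 81.0 and 68.0 in wild type and 72.3 and 74.5 in N51 cells.

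Of 10 measured T and NK cell markers (24 listed) 2 rose and 2 fell. The cytotoxic protease Gzmb had levels of 2.78 and 3.18 in wild type and 4.89 and 4.89 in N51 cells and rose by 1.91 (SE 0.24, adjusted p = 2.32e-06). Lat, an adaptor of antigen receptor signalling, had levels of -0.37 and 0.16 in wild type and 1.21 and 2.93 in N51 cells and rose by 2.17 (SE 0.24, adjusted p = 5.04e-07). Cd3g was at least 1.8-fold lower, and Nkg7 was at -0.85 (SE 0.24, adjusted p = 0.0294), with groups that overlapped. The summed signal of the 20 markers was 8.80 and 11.6 in wild type and 32.9 and 38.5 in N51 cells. Gzmb made up most of each sum, so the sums say little about the other markers. The probes of Cd8a, Zap70, Prf1 and 5 others were on no array well above background. In the SLAM family Slamf1 rose while Ly9 was at least 2.14-fold lower and Cd84 at -0.94 (SE 0.22, adjusted p = 0.00543). Gzmb kept its call without each array in turn, and Lat lost it without either wild type array.

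Among the other genes that fell deepest were Aldh1a7 and Aldh1a1. These neighbouring genes, whose aldehyde dehydrogenases oxidise retinaldehyde, were at least 8.18-fold and 11.1-fold lower, with levels of -2.01 and -2.31 for Aldh1a7 and -1.45 and -1.98 for Aldh1a1 in wild type cells. Neither probe was well above background on an N51 array, and they share at most 21 of 60 bases. Rbp2, a retinol-binding protein, was at least 4.84-fold lower. Anxa3, another annexin, had levels of 0.96 and -0.34 in wild type and -3.75 and -4.78 in N51 cells, a difference of -4.58 (SE 0.25, adjusted p = 9.72e-13). The dynein gene Dnah11 was at -4.08 (SE 0.22, adjusted p = 7.89e-13), and Fsd1 and the kinase-like gene Styk1 were at least 6.19-fold and 5.71-fold lower.

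Cxcr4, the receptor of Cxcl12, fell. Its levels were 3.54 and 3.18 in wild type and 2.29 and 1.03 in N51 cells, and the N51 array with Cxcl12 was the lowest. The difference was -1.70 (SE 0.24, adjusted p = 1.33e-05), and its other probe gave the same -1.70. Of 27 measured genes of the Cxcr4 axis and of G protein control (33 listed), Rgs2, which shortens G protein signals, was the other that fell, by 0.94 (SE 0.23, adjusted p = 0.00968), and none rose. The kinase Rock1 did not pass at -0.27 (SE 0.22, adjusted p = 0.564). The probes of Cxcl12 and of its other receptor Ackr3 had no array well above background. Both calls were lost without either wild type array, and that of Rgs2 also with median scaling, quantile normalization and normexp.

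Targets of FOXO factors fell at 5 and rose at 2 of 17 measured (20 listed). Sesn3, a stress-induced sestrin, had levels of -0.58 and -0.57 in wild type and -1.83 and -1.77 in N51 cells and fell by 1.23 (SE 0.23, adjusted p = 0.000632). Rbl2, the pocket protein p130, and Cdkn1b, the cell cycle inhibitor p27, were at -1.14 (SE 0.22) and -0.92 (SE 0.26), the latter with -0.22 without and -1.63 with Cxcl12. The arrays of N51 and wild type cells overlapped for Cdkn1b and for Pik3ip1, an inhibitor of PI3 kinase, at -1.02 (SE 0.24). Bcl6 was at least 1.3-fold lower.

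Among the members that rose was Klf2. Klf2, a regulator of lymphocyte quiescence, had levels of 1.49 and 1.0 in wild type and 1.54 and 4.77 in N51 cells, so that the whole of its 1.91 (SE 0.44, adjusted p = 0.00525) came from the pair with Cxcl12, and the difference between the pairs was not tested. With the shared spread 3 of the 7 passed, Sesn3 and Rbl2 among them, and without either wild type array 1 did, neither of these. The inhibitor Cdkn2c was at -0.90 (SE 0.23, adjusted p = 0.0129), while Cdkn1a, encoding p21, did not pass at 0.36 (SE 0.22, adjusted p = 0.387).

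Of 22 measured transcription factors of blood cells 2 rose and 2 fell, 9.09% each, against 4.87% and 3.17% of all genes tested. Besides Id1, the LIM protein Lmo2 rose by 1.46 (SE 0.23, adjusted p = 6.5e-05). Myb, which keeps progenitors immature, had levels of 5.40 and 5.29 in wild type and 3.88 and 4.42 in N51 cells and fell by 1.20 (SE 0.25, adjusted p = 0.00241), and all its probes agreed in sign. Runx2 was at -0.92 (SE 0.21, adjusted p = 0.00587). Runx1, whose pairs had opposite signs, did not pass at 0.17 (SE 0.24, adjusted p = 0.759). The calls of Lmo2, Id1 and Runx2 were lost without either wild type array, and that of Myb without the wild type array.

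Feedback genes of the MAP kinase route held 2 that rose and 1 that fell among 14 measured, where 4.87% of all genes tested rose and 3.17% fell. The phosphatase Dusp4 had levels of 1.75 and 2.34 in wild type and 2.67 and 3.94 in N51 cells and rose by 1.26 (SE 0.23, adjusted p = 0.000507). Spry2, an inhibitor of receptor signalling, fell by 1.16 (SE 0.23, adjusted p = 0.00117), but its other probe read 0.27. The call of Dusp4 was lost with the shared spread, and the calls of Dusp4 and Spry2 without either wild type array.

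In the interferon list 3 of 20 measured genes rose, among them Usp18 at 1.63 (SE 0.30) and Oasl1 at 1.23 (SE 0.30), and none of the 3 passed with the shared spread. In the glycolysis list 3 of 26 rose, with the glucose transporter Slc2a3 at 1.15 (SE 0.25), Ndrg1 at 0.87 (SE 0.24) and Eno1 at 0.78 (SE 0.23). Of 17 measured p53 targets 2 rose and 2 fell, one of the latter Trp53inp1 at -0.92 (SE 0.22, adjusted p = 0.00798). The shares risen were 15% in the interferon, 11.5% in the glycolysis and 11.8% in the p53 list, against 4.87% of all genes tested. The share fallen was 11.8% in the p53 list, against 3.17% of all genes tested. All 3 glycolysis calls and all 4 p53 calls were lost without either wild type array.

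Several other lists had no member that passed the test in limma. None of 29 DNA replication genes, 28 mitosis genes, 19 unfolded protein response genes, 11 heat shock genes or 9 inhibitors of apoptosis did, with list medians from -0.20 to 0.14. At an unadjusted p under 0.05 there were 2, 1, 5, 1 and 1 of them in that order, and with the shared spread 0 passed in each list. Birc5, which encodes survivin, had levels of 6.57 and 6.72 in wild type and 6.12 and 6.87 in N51 cells and a difference of -0.15 (SE 0.28, adjusted p = 0.839). Of the 29 replication genes 3 were above 0, where 47.7% of all genes tested were, and the lowest was at -0.49.

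Where N51 differed from N78 was tested by setting each form against the wild type arrays of its own slide. Since N51 lies on the first slide alone and N78 on the second, the ITD form and the slide cannot be told apart. Of 12334 genes 151 (1.22%) passed with limma over 8 arrays, 85 (0.689%) with the N51 effect above and 66 (0.535%) with it below that of N78. The 2 effects correlated at 0.453 across genes. Without the wild type array of the first slide 10 genes passed and without the one with Cxcl12 11, against 844 without the N51 array, 288 without the N51 array with Cxcl12 and 39 to 64 without each array of the second slide.

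Many of the N51 genes lay on the same side of wild type in N78. Of 566 genes that rose in N51 and had N78 values, 405 were above and 69 below wild type in both N78 pairs, where 41.9% of all genes were above. Of 369 that fell, 268 were below and 34 above in both, where 33.2% of all genes were below. The median of the genes that rose was 1.13 in N51 and 0.64 in N78, and of those that fell -1.09 and -0.68. Since the genes were picked in N51, its median is drawn outwards by that choice. Mcpt8, Clec7a, Cma1 and Lyz2 had N78 differences of -4.88, -4.87, -3.51 and 2.89.

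**Figure D4:**
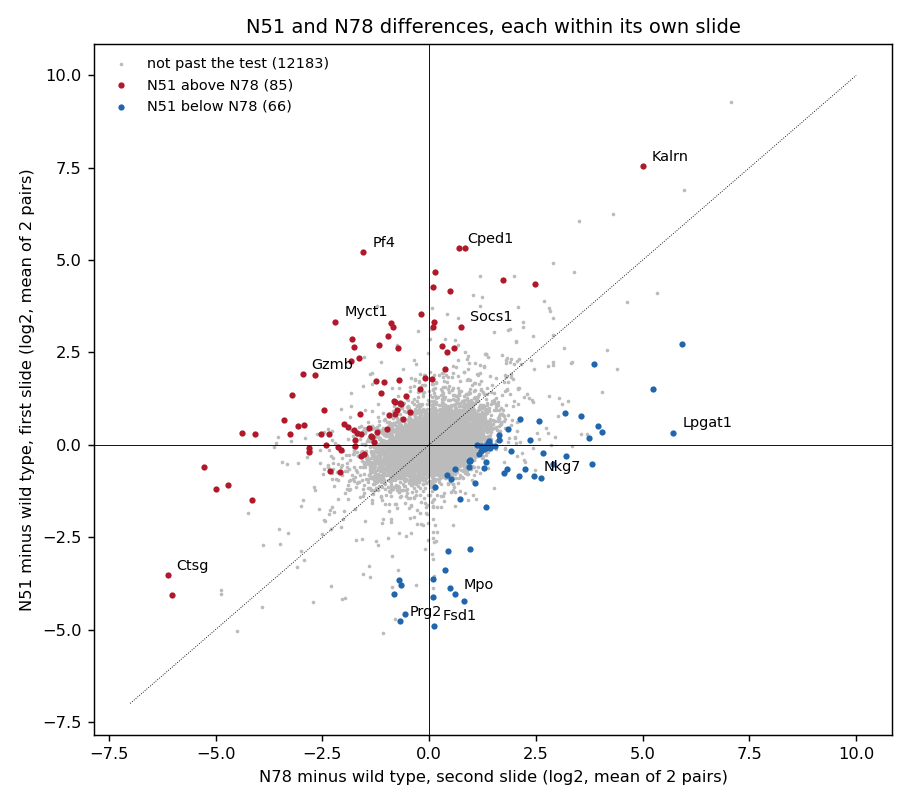
Each point is 1 of 12334 genes, with the mean N78 difference from wild type on the horizontal and the mean N51 difference on the vertical axis, in log2 units, and the dotted line marks equal effects. Red points are the 85 genes whose N51 effect was above and blue points the 66 whose N51 effect was below that of N78. Gzmb lies at 1.91 in N51 and -2.97 in N78.

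Pf4 passed this test (adjusted p = 0.000115), but on the second slide no array had its probe well above background, so the size of the difference between the forms was not measured. Gzmb rose in N51 and was lower in N78, with levels on the second slide of 0.82 and 1.57 in wild type and -1.75 and -1.79 in N78 cells, and the effects differed by 4.87 (SE 0.31, adjusted p = 0.000115). Myct1, a gene first described as a MYC target, moved alike, from -2.40 and -3.07 in wild type and 0.70 and 0.50 in N51 cells on the first slide to 0.30 and 0.58 in wild type and -1.53 and -1.99 in N78 cells on the second, a difference of 5.53 (SE 0.35, adjusted p = 0.000115). For both genes N51 and wild type arrays did not overlap on the first slide.

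Socs1 was the STAT5 target for which the forms differed, by 2.45 (SE 0.48, adjusted p = 0.0442), with second-slide levels of -2.01 and -1.86 in wild type and -1.37 and -1.01 in N78 cells. This call was lost without 6 of the 8 arrays in turn, unlike the N51 call of Socs1 above. Hemgn, Cped1 and Kalrn passed as well. Hemgn and Cped1 passed the filter through the N51 arrays alone, and Kalrn through the arrays of the ITD forms alone. No p-value of this test is therefore given for them. The second slide had neither the Hemgn nor the Cped1 probe well above background on any array, and the Kalrn probe was well above background on both N51 and both N78 arrays and on no wild type array of either slide, so no size is given for these. Il10ra was at 2.86 and -1.80. Itga2b and Hba-a1 also passed, at 1.67 (SE 0.34, adjusted p = 0.0497) and 2.98 (SE 0.46, adjusted p = 0.0183). In this test Itga2b lost its call without 6 of the 8 arrays in turn and with normexp, and Hba-a1 without 3 of the 8.

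On the lower side stood granule genes. Mpo had an N51 effect of -4.04 and an N78 effect of 0.60, which differed by -4.64 (SE 0.58, adjusted p = 0.0076). Its second-slide levels were 2.91 and -0.20 in wild type and 2.99 and 0.92 in N78 cells, so the 2 wild type arrays of that slide differed from each other more than N78 did from wild type. Epx and Prg2 differed by -4.37 (SE 0.76, adjusted p = 0.0273) and -4.10 (SE 0.80, adjusted p = 0.0429) and share that pattern. Ctsg was lower still in N78, at -6.13 against -3.53 in N51.

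Anxa3 was at -4.58 in N51 and -0.56 in N78, a difference of -4.02 (SE 0.40, adjusted p = 0.00309). For Fsd1, Rbp2 and Mmp8 the second slide had no array with the probe well above background, so a fall there could not have been seen. Lpgat1 passed from the other side, with its probe well above background on both N78 arrays and on no other. It passed the filter through the N78 arrays alone, so no p-value is given. Nkg7 fell in N51 and was higher in N78, at -0.85 and 2.46.

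**Figure D5:**
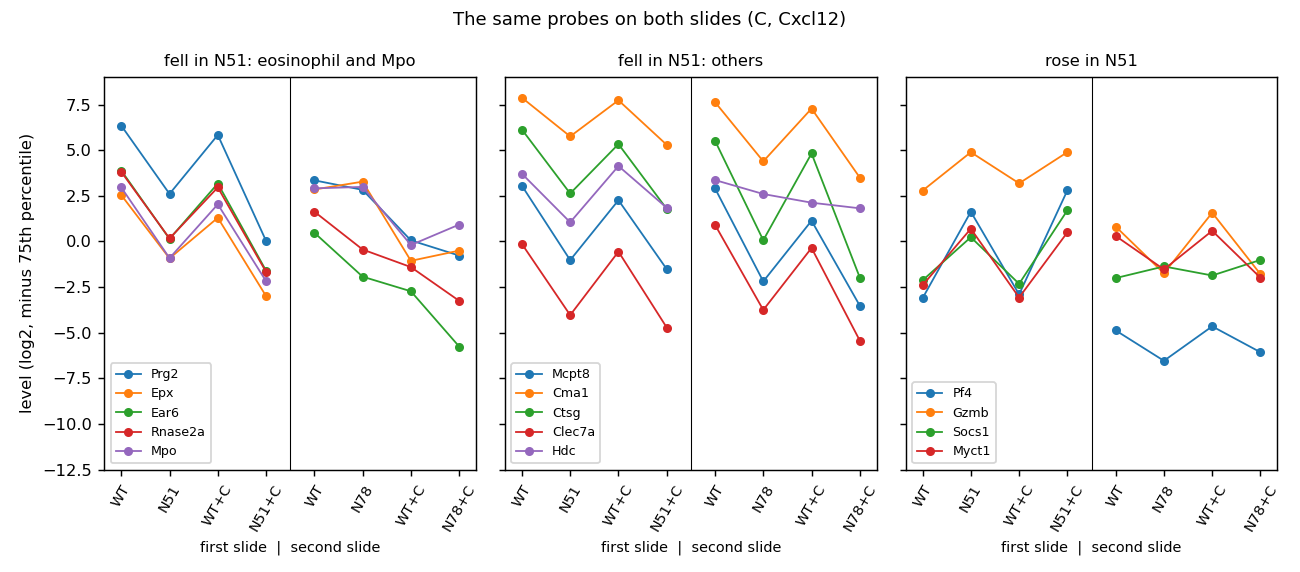
Levels of named genes on the 8 arrays, in log2 units relative to the 75th percentile of each array, with the first slide to the left and the second to the right of the vertical line in each panel. Lines join arrays of a slide and colours mark genes, with WT for wild type and C for Cxcl12. Prg2, Epx and Mpo are lower in N51 on the first slide and lower with Cxcl12 on the second, while Mcpt8, Ctsg and Clec7a are lower in either ITD form.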

How the data were processed

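Total RNA of Ba/F3 cells was labelled with Cy3 and hybridised to Agilent 4x44K mouse arrays, per the labels and the file headers. The deposited values are intensity readings that Agilent Feature Extraction (version 9.5.1.1 on the first and 10.7.3.1 on the second slide, per the file headers) had background-subtracted and detrended on each array and left unscaled across arrays. The foreground and background intensity columns were used only for the normexp alternative. The authors' tables hold deposited intensity values scaled per array, and gave another alternative.

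Here control spots were left out, outlier spots set to missing, spots of a probe averaged, log2 taken and each array's 75th percentile subtracted (937 to 1109 on the first slide). Of 41174 probes 20595 were kept, those well above background on both arrays of N51 or of wild type, and the brightest kept probe stood for its gene. Genes were named by accession (27198 probes), symbol (5590) or synonym (721) in the RefSeq table for GRCm38.p6 or by the file's own name (752), and 6913 had none. Probe positions are those of mm9 in the second slide's files, with no annotation of that build used here. The number of arrays limits the precision.

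limma 3.58.1 (R 4.3.3) was run with eBayes and an intensity trend. On simulated data the N51 fit recovered 76% of 2-fold and 99% of 4-fold changes among 11672 genes and called 8 unchanged genes. The N51 minus N78 fit, on 12334 genes, recovered 27% and 86% and called 4. How far the simulated spread matches that of these arrays was not tested, so these values do not measure how reliable the calls above are. Named were up to 15 genes per direction with the largest differences past the test, the same direction in both pairs and the higher side well above background, up to 4 members of each list that passed, other members as examples, up to 8 genes per direction for N51 minus N78, and always Flt3, Cxcr4, Ackr3, Cxcl12, Pim1, Socs1, Cish, Id1, Myc, Runx1, Rock1, Cdkn1a, Birc5 and Lyz2. The text gives a selection. The members, the lists and the tests were chosen with earlier results of these data known. Of the called genes with several probes, 21 of 317 had a probe of the opposite sign. Some genes that enter the counts are not reported here by name.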

Additional observations from a re-analysis of the deposited data

Results flagged for a closer look

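For the genes below, the N51 effect differed from the N78 effect past the threshold of limma over 8 arrays, each against the wild type arrays of its own slide. The ITD form and the slide cannot be told apart in any of them. Of the 33 genes, 14 had a probe well above background on at least 1 array of every group. Of these, Gzmb (4.87), Myct1 (5.53), Il10ra (4.67), Hba-a1 (2.98), Rgl1 (2.74), Socs1 (2.45) and Itga2b (1.67) lay above N78, and so did Ctsg (2.60), which was lower than wild type in both forms. Mpo (-4.64), Epx (-4.37), Prg2 (-4.10), Anxa3 (-4.02), Nkg7 (-3.31) and Anxa1 (-3.14) lay below it.

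In the other 19 genes at least 1 group had no array well above background, so the fitted value includes background levels and is no measured size. With no wild type or N78 array of the second slide well above background, the fitted values were 6.76 for Pf4, 4.49 for Hemgn, 4.63 for Cped1, 4.54 for Mfap3l and 3.70 for Fcgr1 where N51 was higher than its wild type. They were -5.01 for Fsd1, -5.06 for Rbp2, -4.21 for Mmp8, -3.73 for Ear10 and -3.20 for Styk1 where N51 was lower. For Kalrn (2.53) no wild type array of either slide was well above background, and for Lpgat1 (-5.40) the N78 arrays alone were. With no N78 array well above background, Pygm was at 4.67, Ddc at 4.58, Syt16 at 4.56, Itgb5 at 3.88 and Dnah11 at 1.96. Mpeg1 (-2.94) had no N51 array and Ifitm6 (-4.33) no wild type array of the second slide well above background.

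With normexp 16 of the 33 calls were kept, while the sign turned for Dnah11 (-0.62), Ear10 (0.42) and Styk1 (0.34). Dnah11 lost its call without 5 of the 8 arrays in turn, and Ear10 and Styk1 each without 7. Gzmb, Myct1, Pf4, Syt16 and Lpgat1 kept theirs without each of the 8, but Lpgat1 lost its call with normexp, at -0.91. Without the wild type array of the first slide 7 of the 33 calls were kept, and without the one with Cxcl12 5.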

How the results depend on the processing

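Arrays were paired by their Cxcl12 state, a term of the main analysis. By replicate number, no paired analysis was possible because the N51 titles carry none. Of 938 N51 calls, 448 were left with normexp background correction, 306 with quantile normalization, 537 with median scaling, 106 without the Cxcl12 term and 497 with the spread shared by 8 arrays, a fit that called 498. With no filter on dim probes 1910 genes were called, and the authors' table kept 919 of the 938. Left out 1 array at a time, the count ran from 128 to 1824. No call turned its sign under the other scalings, 2 did when the probes of a gene were averaged, and at most 8 when 1 array was left out. The 369 genes at least 2-fold in both pairs became 206 with normexp and 218 when a probe had to be well above background on all 4 arrays. The 151 N51 minus N78 calls became 86 with normexp and with a filter on all 8 arrays, and 10 to 844 when 1 array was left out. The cause was not tested.

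Of the N51 differences of named genes, those whose sign turned had not passed. With 1 array left out Mcl1 ran from -0.34 to 0.034, Gata1 from -0.086 to 0.29, Epor from -0.55 to 0.11, Cpa3 from -0.24 to 0.71, Il3ra from -0.028 to 0.34, Runx1 from -0.16 to 0.51 and Birc5 from -0.50 to 0.21, and the mean of the Csf2rb probes was 0.18. With normexp the N51 minus N78 difference turned for Dnah11 (-0.62), Ear10 (0.42) and Styk1 (0.34), which had passed that test. Each group has 1 array per Cxcl12 state, and dim probes limit folds to bounds for 69 genes that rose and 56 that fell.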
